A study of Mus musculus with 9 samples.

Results

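The genes described here are the nuclear genes for the subunits of the oxidative phosphorylation machinery, 77 of the 16428 genes in the count table. They were chosen by name alone: protein-coding genes of GENCODE M21 whose symbols begin with Ndufa, Ndufb, Ndufc, Ndufs or Ndufv and a digit (complex I), are Sdha to Sdhd (complex II), or begin with Uqcr (complex III), Cox4 to Cox8 (complex IV) or Atp5 (complex V). This gave 36 genes for complex I, 4 for complex II, 8 for complex III, 12 for complex IV and 17 for complex V. Of the 77, 76 had a mean normalized count of at least 10 and were tested. The muscle isoform Cox6a2 was the exception, with values of 4.27 to 13.1. A further 7 genes with fitting names (Cox4i2, Cox6b2, Cox7a1, Cox7b2, Cox8b, Cox8c and Ndufa4l2) are not analysed here.

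RNA was measured in 9 libraries of mouse embryonic fibroblasts, the connective tissue cells that grow out of dispersed embryos, all with the genotype CARM1f/f ER-Cre. In these cells both Carm1 alleles carry loxP sites, and Cre is present as a fusion with the hormone-binding part of the estrogen receptor, so that tamoxifen can switch it on. The WT group (3 libraries) was untreated. The KO group (3) had 2 uM 4-OHT (4-hydroxytamoxifen) and the CARM1i group (3) had 1 uM of the CARM1 inhibitor TP-064, both treatments over 6 days. The medium was RPMI. No number of days is given for WT. All groups share the floxed alleles and the recombinase. No group combined 4-OHT with an intact gene, so 4-OHT and the deletion cannot be told apart, and no group is labelled as a vehicle control. The labels do not say whether replicates were separate cultures, and a p-value here refers to the spread among these 3 libraries a group, technical or not.

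Oxidative phosphorylation couples the oxidation of NADH and succinate to the synthesis of ATP in the inner mitochondrial membrane. Complexes I and II pass electrons to coenzyme Q, complex III passes them to cytochrome c and complex IV to oxygen, while complexes I, III and IV pump protons that drive the ATP synthase, complex V. Apart from complex II, each is assembled from subunits encoded in the nucleus and subunits encoded in mitochondrial DNA. CARM1 (PRMT4) methylates arginines of histones and of transcriptional coactivators.

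Carm1, counted over the whole gene, lay at 1079 to 1143 normalized counts in WT, 711 to 794 in KO and 986 to 1112 in CARM1i, so KO and WT did not overlap. Each library held 28657018 to 35842771 reads. CARM1i replicate 3 stood apart from its group on the third principal component (19.5 against -11 and -11.7). On the same component WT replicate 3 also stood apart from its group (-10.3 against 8.65 and 5.68). Of 8 fibroblast markers, 7 were abundant enough to test and Lum was near 0. Their summed value was 248994 to 258835 in WT, 186216 to 198181 in KO and 218446 to 242159 in CARM1i. In KO, 6 of the 7 fell (Col1a1, Col1a2, Pdgfra, Pdgfrb, Vim and Dcn) and Thy1 rose (limma, adjusted p under 0.05). All 7 thus passed, beside 41.9% of all genes tested. In CARM1i 3 fell and 1 rose (57.1% passed, beside 19.1% of all genes tested). Marker lists of other cells were low, and some were higher in KO. The sole epithelial marker analysed of 5, Krt18, lay at 23.3 to 48.0 in WT, 91.9 to 126 in KO and 32.4 to 43.8 in CARM1i, and rose in KO (log2 fold change 1.58, adjusted p = 4.58e-05, limma). The 5 endothelial markers summed to 390 to 446 in WT, 463 to 525 in KO and 435 to 454 in CARM1i. For 2 of 6 muscle markers the sums were 331 to 390, 435 to 445 and 275 to 347. Both sums lay higher in KO than in WT without overlap, as 26.7% of all single genes tested did. Singly, 1 of 4 tested endothelial and 1 of 2 muscle markers rose in KO, beside 41.9% of all genes called. Their log2 fold changes ran from 0.02 to 0.69 and from 0.00 to 0.61, and none fell. For 4 of 6 macrophage markers the sums were 253 to 318, 292 to 334 and 294 to 323, and Fabp4, 1 of 5 adipocyte markers, lay at 45.0 to 47.0, 33.4 to 73.5 and 25.7 to 39.5. The defining markers Ptprc, Adgre1, Epcam, Cdh1, Myod1, Myog and Adipoq were not among the genes analysed here. The part of these marker changes in the results below was not tested, and in bulk RNA fewer cells of a type and less RNA per cell cannot be told apart.

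Of the members, 4 passed the test in both comparisons with WT: Ndufv3, Ndufa7 and Ndufa8, accessory subunits of complex I, and Cox6a1, a subunit of complex IV. The start regions of 3 of them are shown because the members of this machinery are classically linked to a few promoter-binding factors. Each run holds the bases ahead of the gene (RefSeq, GRCm38.p6, written on the gene's strand) that lie in no annotated exon of GENCODE M21. Capitals mark the 10-base palindromic motif of nuclear respiratory factor 1 (NRF1). The Ndufv3 run is at chr17:31519981-31520114 (plus strand), the Ndufa8 run at chr2:36049407-36049457 (minus strand) and the Cox6a1 run at chr5:115348982-115349129 (minus strand).
Ndufv3: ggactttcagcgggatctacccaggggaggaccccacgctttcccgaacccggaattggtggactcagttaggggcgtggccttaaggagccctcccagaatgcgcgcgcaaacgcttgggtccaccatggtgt
Ndufa8: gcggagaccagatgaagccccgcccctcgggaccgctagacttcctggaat
Cox6a1: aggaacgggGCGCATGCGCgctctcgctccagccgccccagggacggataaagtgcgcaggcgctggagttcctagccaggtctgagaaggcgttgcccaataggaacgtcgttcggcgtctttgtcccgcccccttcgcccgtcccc

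The runs are short because the 250 bases ahead of each of the 4 starts contain annotated exons. Exons of another gene lie there in each case: Wdr4 for Ndufv3, Rps28 for Ndufa7, Morn5 for Ndufa8 and Gm42903 for Cox6a1. Those of Ndufa8 and Cox6a1 also contain annotated exons of the gene itself, and these 2 runs end 68 and 23 bases before the RefSeq start. For Ndufa7 only 9 bases remained. Wdr4 and Rps28, the neighbours that were measured, lie on the opposite strand. Wdr4 fell in KO (log2 fold change -0.19, adjusted p = 0.00726) while Ndufv3 rose, and Rps28 had a log2 fold change of 0.05 in KO (adjusted p = 0.135, limma). In CARM1i the same 2 genes had log2 fold changes of 0.03 and -0.01.

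Promoter windows of 300 bases (250 before to 50 after the start) were matched for 64 of the 77 genes, and 4 motifs were searched on both strands. The NRF1 motif, the letters in capitals above, stood in the windows of 5 members (7.81%), Atp5g2, Atp5k, Cox6a1, Ndufa11 and Uqcrc1, against 2.26% of tested genes and 1.07% of all genes in the reference. The YY1 motif AAGATGGCG was in 7 members (10.9%) against 3.58% of tested genes, and the estrogen-related receptor motif TCAAGGTCA in 2 (3.13%) against 0.288%. The shorter ETS motif CCGGAAG, the core bound by GABP, was in 16 members (25%) against 20.0% of tested genes. Of the 17 matched members that rose in KO, 2 held the NRF1 motif, 5 the ETS motif and none the other 2. Of the 44 matched members that did not pass in KO, 3 held the NRF1 motif, 11 the ETS motif, 7 the YY1 motif and 2 the estrogen-related receptor motif. The 3 matched members that fell held none. A match of letters is a description and does not show binding.

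In untreated cells, levels per kilobase of the principal transcript spanned a wide range across the members. Atp5b, the catalytic beta subunit of the ATP synthase, was highest at 18168 ± 181 normalized counts per kb (SD, n = 3). Cox8a at 10246 ± 99.9 and Atp5a1, the alpha subunit, at 9667 ± 301 normalized counts per kb followed, each separated from the next by more than the SD of either. In complex IV, apart from Cox6a2 at 11.2 ± 1.64 normalized counts per kb, all genes lay between 2951 (Cox7a2) and 10246 (Cox8a). Complex II ran from 801 ± 20.7 for Sdhc to 2548 ± 24.9 for Sdha on the same scale. The lowest tested members were Atp5s at 92.7 ± 3.47 and Ndufb2 at 31.9 ± 4.43 normalized counts per kb. Atp5s encodes coupling factor B, which is not a structural subunit. The Ndufb2 gene overlaps exons of Gm42420 on its own strand and of Braf and Gm16272 on the other, and the strand setting of the counting is not given in the sources used here.

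**Figure D1:**
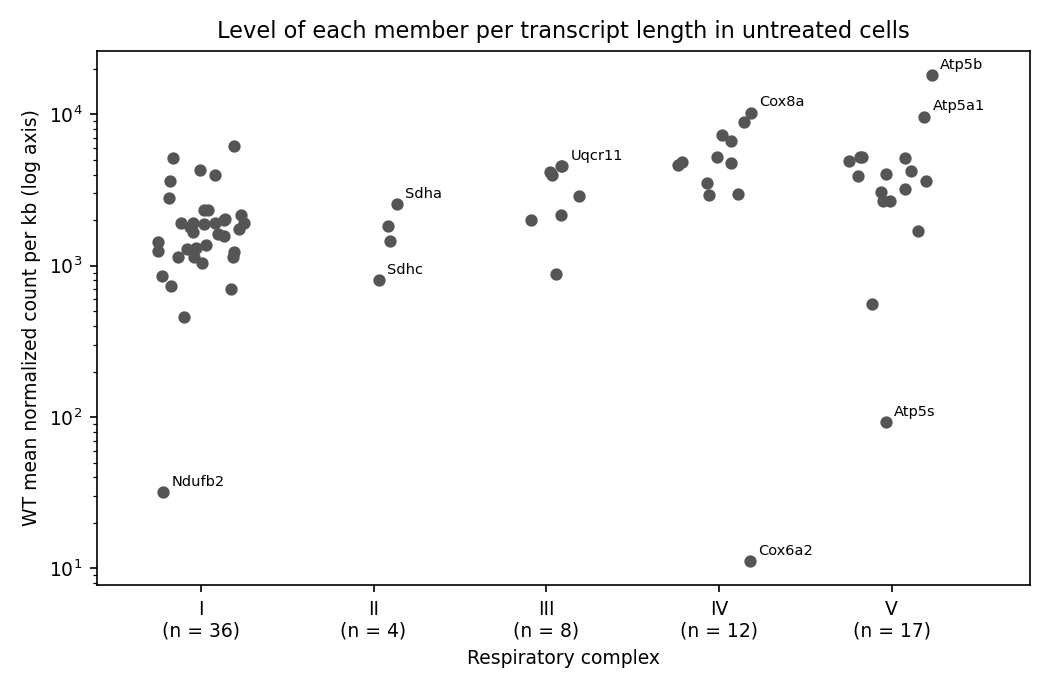
Mean normalized count per kilobase of principal transcript in the 3 WT libraries (y, log axis) for each of the 77 genes, by complex (x; each point is 1 gene). Atp5b is highest at 18168 and Atp5s, Ndufb2 and Cox6a2 far below the rest.

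Changes of these genes in KO were small. In KO against WT, 19 of the 76 tested members rose, 5 fell and 52 did not pass (limma, Benjamini-Hochberg over all 14560 genes tested, adjusted p under 0.05). The 24 called members are 31.6% of those tested, whereas 41.9% of all genes tested were called, 21.4% higher and 20.5% lower. The members' share is below the background, which was 55.1% among genes with a mean of at least 500. At an unadjusted p under 0.05 there were 20 higher and 6 lower members, beside 48.9% of all genes. The log2 fold changes of the members ran from -0.14 to 0.34 with a median of 0.02, against a median of -0.00 over all genes. No member changed by 1.5-fold or more, as 12.9% of all genes did. The KO and WT libraries did not overlap for 23 members that were higher and 10 that were lower, against 26.7% and 25.9% of all genes (52.6% together).

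**Figure D2:**
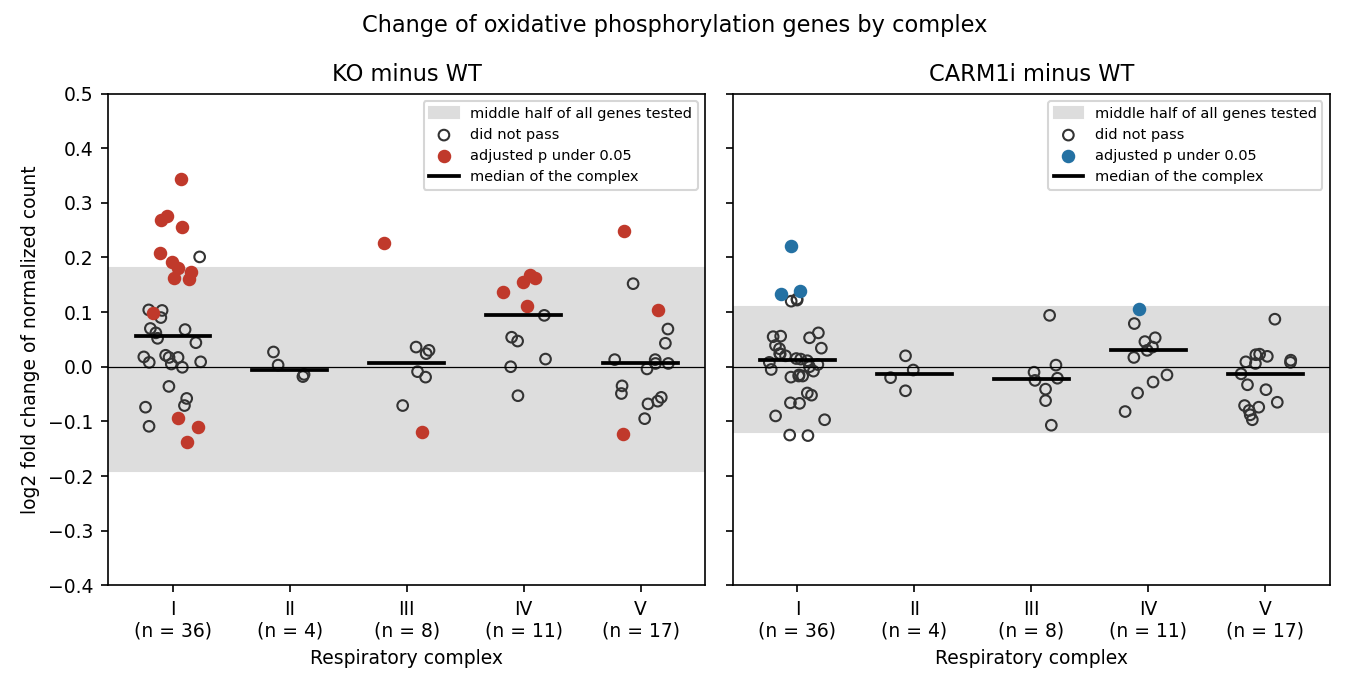
Log2 fold change against WT (y) of each tested member by complex (x), for KO on the left and CARM1i on the right; filled points passed an adjusted p of 0.05, bars are medians and the grey band spans the middle 50% of all genes tested. In KO 38.9% of complex I and 45.5% of complex IV members are filled. The share is 41.9% of all genes tested and 55.1% of those with a mean of at least 500. In CARM1i 4 members are filled.

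Of the tested members 36 were in complex I and 11 in complex IV, where 38.9% and 45.5% were called, near the 41.9% of all genes. Both shares were below the 55.1% of genes with a mean of at least 500. Complex I had 11 that rose and 3 that fell of 36 (median log2 fold change 0.06), and complex IV had 5 that rose and none that fell of 11 (median 0.09). In complex III 1 rose and 1 fell of 8 (median 0.01), and in complex V 2 rose and 1 fell of 17 (17.6% called, median 0.01). None of the 4 complex II genes was called (median -0.01), also at an unadjusted p under 0.05. The medians of complexes III and V are near 0 and were below 0 after quantile normalization and with a common library total. Summed over members, the normalized counts of complex I were 104% of WT in KO and those of complex IV 107%, while complex V was at 97.9%, a sum that the 2 F1 genes with the most reads dominate. All members together took 0.796 to 0.809% of the reads in WT and 0.801 to 0.811% in KO.

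In complex I, the accessory subunits surround the catalytic core and are needed for its assembly and stability. Of 28 accessory genes 9 rose and 1 fell (35.7% called), and of 7 core genes 1 rose and 2 fell (42.9%). The share was 41.9% of all genes and 55.1% of those with a mean of at least 500. Ndufv3 (chr17:31520115-31531331, mm10), a small subunit of the NADH-oxidizing module, had the largest change of all members. It measured 2009, 2085 and 2025 normalized counts in WT and 2579, 2556 and 2630 in KO. Every KO library was above every WT library, and the rise was 26.9% (log2 fold change 0.34 ± 0.04 SE, adjusted p = 1.24e-06). Ndufa7 (chr17:33824572-33838317) measured 2670, 2617 and 2828 in WT and 3252, 3275 and 3295 in KO. Its groups were also apart, with a rise of 21.1% (0.28 ± 0.04, adjusted p = 9.20e-06). Ndufb9 and Ndufb4, subunits of the membrane arm, rose by 20.4% and 19.4% (adjusted p = 0.000807 and 0.00187). Ndufb9 overlaps exons of Gm49356 on its own strand. The other 5 accessory genes that rose were Ndufb3, Ndufa3, Ndufa12, Ndufa11 and Ndufa8, by 11.9 to 15.5%.

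The 7 nuclear core genes of complex I, which carry the flavin, the iron-sulfur clusters and the quinone site, did not share a direction. Ndufs3 rose, from 2175, 2154 and 2056 in WT to 2394, 2309 and 2429 in KO (log2 fold change 0.16 ± 0.04, adjusted p = 0.00476). Ndufs1, the large iron-sulfur protein, fell from 4218, 4178 and 4068 to 3925, 3834 and 3917 (-0.09 ± 0.03, adjusted p = 0.0252). Ndufv1, the flavoprotein that oxidizes NADH, fell from 3662, 3663 and 3442 to 3296, 3244 and 3431 (-0.11 ± 0.04, adjusted p = 0.0201). The groups did not overlap for any of these 3 genes, though for Ndufv1 replicate 3 of WT and of KO nearly met. Ndufs7, Ndufs8 and Ndufv2 did not pass, with log2 fold changes of -0.11, -0.00 and 0.06. Among accessory genes only Ndufb11 fell (X chromosome, 1268 to 1340 in WT and 1158 to 1238 in KO, -0.14 ± 0.05, adjusted p = 0.0213).

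Complex II, succinate dehydrogenase, links the respiratory chain to the tricarboxylic acid cycle. Sdha, its flavoprotein, measured 7372, 7469 and 7327 in WT, 7458, 7363 and 7396 in KO and 7487, 7513 and 7480 in CARM1i. All KO libraries lay within the WT range, and all CARM1i libraries were slightly above it. For its 4 genes the 95% confidence intervals of the log2 fold change lay within -0.11 to 0.12 in KO and within -0.14 to 0.08 in CARM1i.

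In complex III the Rieske iron-sulfur protein Uqcrfs1 fell, from 2794, 2704 and 2654 in WT to 2479, 2459 and 2570 in KO (log2 fold change -0.12 ± 0.04, adjusted p = 0.0235), with no overlap. The core proteins Uqcrc1 and Uqcrc2 did not pass (-0.02 and -0.07). The small subunit Uqcrq went the other way, from 1350, 1337 and 1334 to 1592, 1436 and 1688 (0.23 ± 0.05, adjusted p = 0.00256). Its KO libraries were all above WT but spread over a wider range. The other 4 small subunits had log2 fold changes of -0.01 to 0.04.

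Complex IV, cytochrome c oxidase, had a median of 0.09, which was below that of complex I after quantile normalization (0.031 against 0.055) and without WT replicate 3 (0.046 against 0.050). Cox8a (chr19:7215153-7217616), the smallest nuclear subunit in its common isoform, measured 5699, 5606 and 5601 in WT and 6289, 6236 and 6461 in KO. Every KO library was above every WT library, by 12.3% on the group means (log2 fold change 0.17 ± 0.03, adjusted p = 0.000201). Cox6b1, which sits where the enzyme dimerizes, rose by 11.9% (adjusted p = 0.000894), Cox6a1 by 9.94% (0.00357), Cox5b by 11.3% (0.00649) and Cox7b by 8.0% (0.0173). Cox4i1, the common isoform of the regulatory subunit, did not pass, although its libraries at 6936, 7050 and 6330 in WT and 7333, 7200 and 7125 in KO did not overlap (0.09 ± 0.04, adjusted p = 0.0748). Cox7a2l, which joins complexes III and IV into supercomplexes, had a log2 fold change of 0.00 ± 0.03. Ndufa4, a complex IV subunit despite its name and counted above under complex I, rose from 3711, 3786 and 3775 to 4124, 3984 and 3962 (0.10 ± 0.03, adjusted p = 0.0265).

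**Figure D3:**
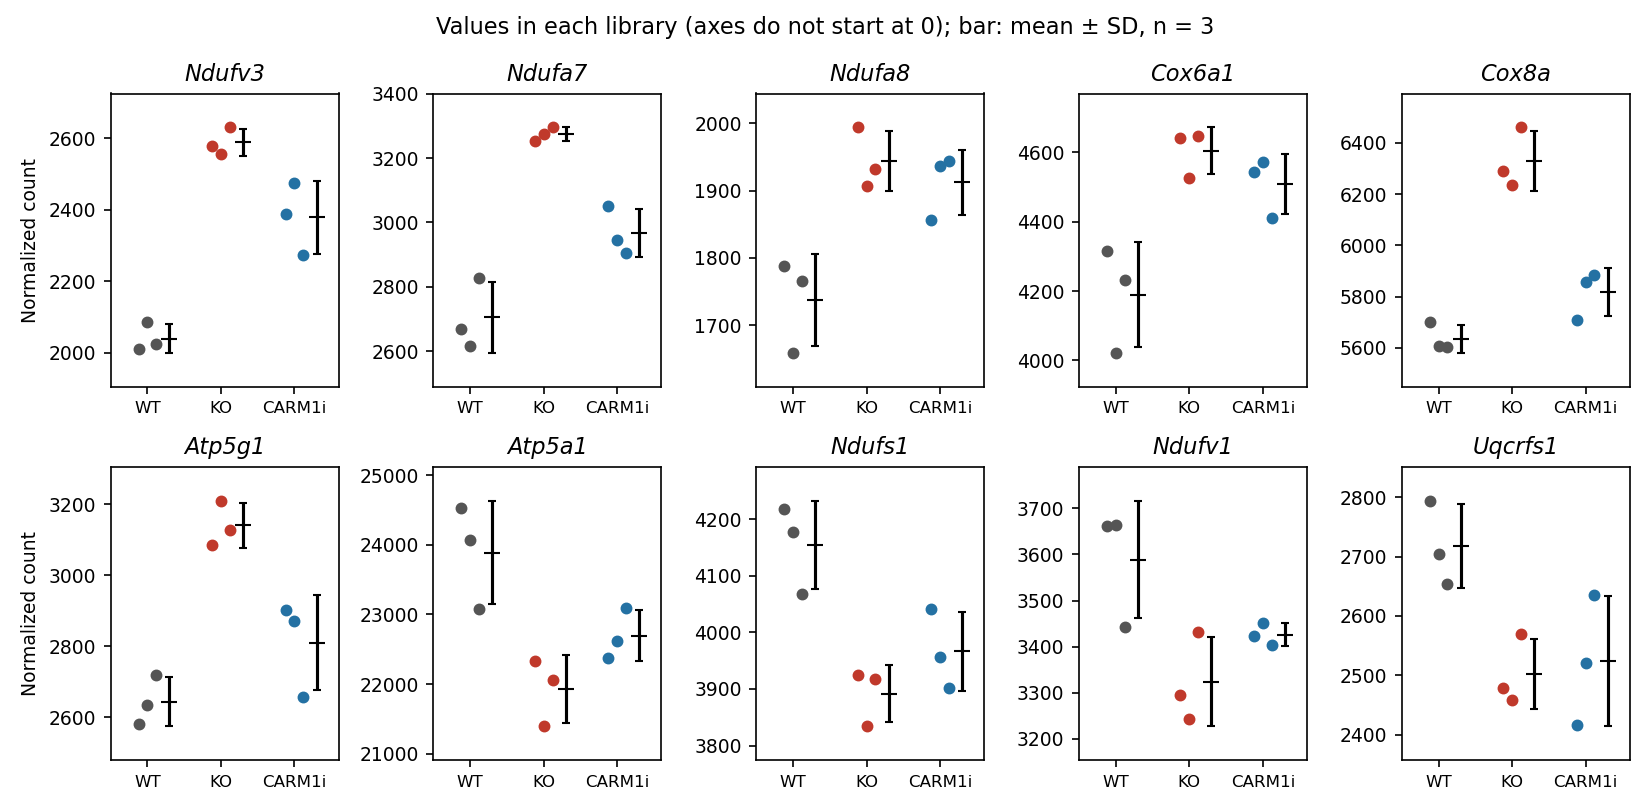
Normalized counts (y; axes do not start at 0) of 10 members in each of the 3 WT, 3 KO and 3 CARM1i libraries (x); the bar beside each group is the mean ± SD. For Ndufv3, Ndufa7, Ndufa8 and Cox6a1 both treated groups lie above WT, for Cox8a and Atp5g1 CARM1i lies below KO, and for the 4 genes that fell the KO libraries lie below WT, with group means under 10% apart.

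In the ATP synthase 2 genes of the membrane part rose and 1 of the catalytic head fell. Atp5a1, the alpha subunit, had the smallest adjusted p of the 5 falls. It went from 24526, 24063 and 23072 in WT to 22337, 21394 and 22062 in KO (-8.17%, log2 fold change -0.12 ± 0.03, adjusted p = 0.00361), with no overlap. Its partner Atp5b did not pass, at 35200, 34693 and 34535 in WT and 34269, 33643 and 33985 in KO (-0.04 ± 0.03, adjusted p = 0.322), although all KO values were lower. The c subunit of the rotating ring is encoded by 3 genes that yield the same mature protein. Atp5g1 rose from 2581, 2634 and 2719 to 3085, 3209 and 3126 (0.25 ± 0.04, adjusted p = 6.32e-05). Atp5g2 and Atp5g3 had log2 fold changes of -0.06 and -0.05 and did not pass. Atp5l, subunit g of the membrane part, rose by 7.47% (adjusted p = 0.0167), and its count is uncertain because 9 other genes hold copies at least 95% identical to it over at least 50% of its transcript. The 4 peripheral stalk genes (Atp5f1, Atp5h, Atp5j and Atp5o) did not pass, at -0.07 to 0.07.

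Of the 5 falls, Atp5a1 alone passed in all 21 alternative settings, and Ndufs1, Ndufv1, Ndufb11 and Uqcrfs1 each lost the call when some single library was left out. The number of falls was 1 without WT replicate 1, 2 without WT replicate 2, KO replicate 1 or KO replicate 2, and 3 without KO replicate 3, while the number of rises stayed between 17 and 20. Of the 19 rises, 13 passed in every setting. The 95% confidence intervals of the 52 members that did not pass lay within -0.25 to 0.25, except for Ndufb2 (upper bound 0.49) and Atp5s (0.40), which had the lowest counts.

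In CARM1i nearly all of these genes were without a call. In CARM1i against WT 4 of 76 rose, none fell and 72 did not pass. This is 5.26%, against 19.1% of all genes tested (10.5% higher and 8.59% lower) and 27.7% of genes with a mean of at least 500. At an unadjusted p under 0.05, 9 members were higher and 5 lower, beside 30.8% of all genes. No member reached 1.5-fold, as 4.67% of all genes did. EdgeR called 5 higher and none lower and DESeq2 4 higher and none lower, whereas quantile normalization called 3 lower and a common library total 4 lower. The groups did not overlap for 12 members that were higher and 6 that were lower, 18 of 76 beside 33.4% of all genes. Medians per complex were 0.01, -0.01, -0.02, 0.03 and -0.01 for complexes I to V, and that of complex I was below 0 with a common total.

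All 4 risers had also risen in KO: they are 4 of 19 rises in KO and 4 of 4 in CARM1i. Both comparisons use the same 3 WT libraries. Ndufv3 measured 2387, 2474 and 2273 in CARM1i, between the WT and KO libraries with no overlap with either (log2 fold change 0.22 ± 0.04 from WT, adjusted p = 0.000563). Ndufa7 measured 3050, 2945 and 2906 (0.13 ± 0.04, adjusted p = 0.0169), also between the groups. Ndufa8, at 1788, 1659 and 1765 in WT, measured 1994, 1907 and 1932 in KO and 1857, 1937 and 1944 in CARM1i (0.14 ± 0.04, adjusted p = 0.0267). Cox6a1, at 4315, 4022 and 4231 in WT, measured 4640, 4526 and 4646 in KO and 4543, 4571 and 4409 in CARM1i (0.11 ± 0.03, adjusted p = 0.0380). For the last 2 genes KO and CARM1i overlapped, and both lay above WT. Only the call of Ndufv3 was kept in all 21 alternatives. Without WT replicate 2 a single rise was left, and without CARM1i replicate 1 or 2 there were 2. Without CARM1i replicate 3, which stood apart, 6 members rose and 2 fell in CARM1i against WT, and 9 were lower than in KO.

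**Figure D4:**
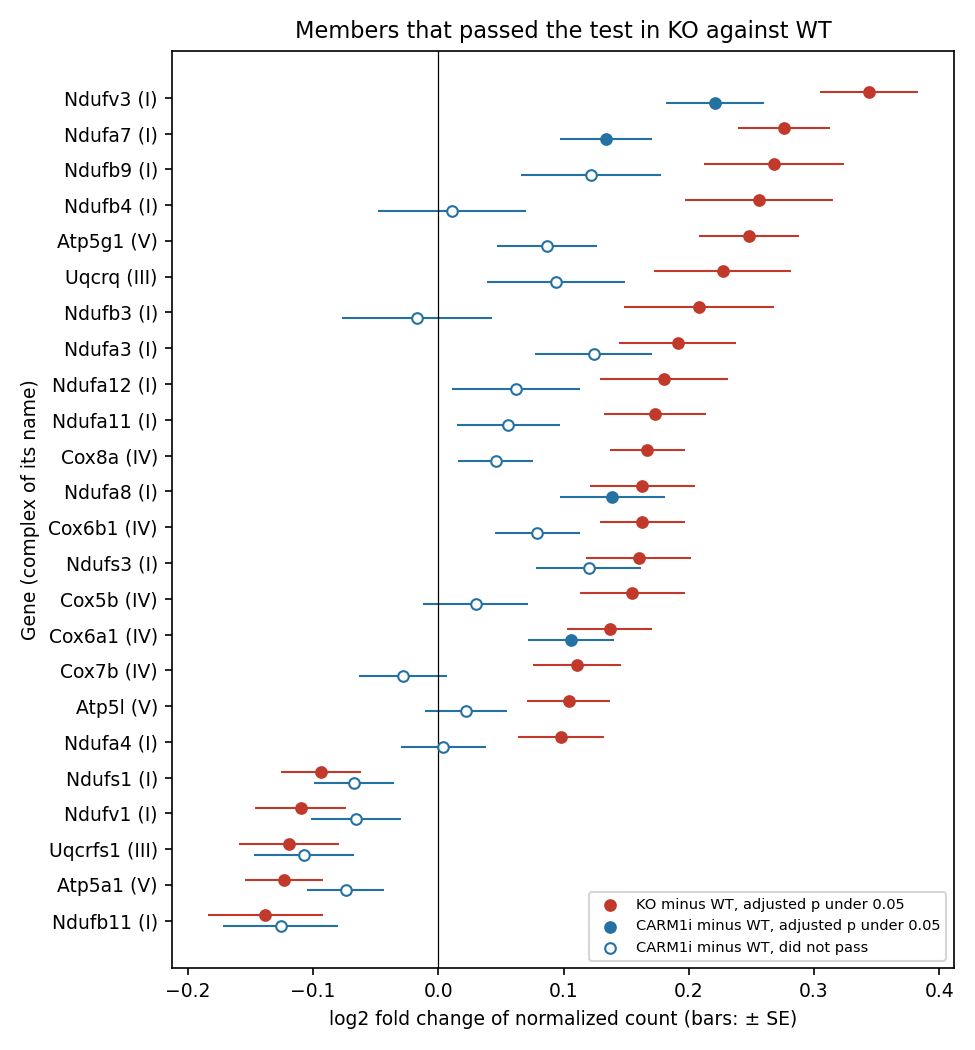
Log2 fold change ± SE against WT (x) of the 24 members called in KO (y, with the complex of the name), in KO (red) and CARM1i (blue); filled points passed an adjusted p of 0.05. The blue point lies to the left of the red one for all 19 genes that rose, and 17 of these are above 0. These genes were picked for high KO values, which by itself favours a smaller CARM1i change. Both changes use the same WT libraries, so neither count is a test.

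Set directly against each other, CARM1i and KO differed for 9 of 76 members, all lower in CARM1i (11.8%, against 23.6% of all genes tested, 12.1% higher and 11.5% lower, and 33.0% of those with a mean of at least 500). No member was called higher by limma, edgeR or DESeq2, and none at an unadjusted p under 0.05, at which 19 were lower (34.2% of all genes in either direction). No member differed by 1.5-fold, as 6.52% of all genes did. The 9 genes were Ndufa7, Ndufa11, Ndufb3, Ndufb4, Ndufv3, Cox5b, Cox7b, Cox8a and Atp5g1, each of which had risen in KO. The groups did not overlap for 17 members that were lower in CARM1i and 4 that were higher, against 36.9% of all genes. The same KO libraries serve in both comparisons.

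Ndufb4 and Ndufb3 had the largest of these differences. Ndufb4 measured 693, 696 and 644 in WT, 793, 781 and 853 in KO and 677, 707 and 663 in CARM1i, so CARM1i overlapped WT and lay below every KO library (log2 difference from KO -0.24 ± 0.06, adjusted p = 0.00533). Ndufb3 measured 802, 940 and 886 in WT, 1006, 1018 and 1005 in KO and 846, 832 and 916 in CARM1i (-0.22 ± 0.06, adjusted p = 0.0109). Cox8a at 5709, 5857 and 5886 and Atp5g1 at 2901, 2872 and 2657 in CARM1i were below KO (adjusted p = 0.00651 and 0.00647). Cox7b, at 3005, 3005 and 2886 in WT and 3125, 3279 and 3203 in KO, measured 2852, 2909 and 2963 in CARM1i (adjusted p = 0.00773). Ndufa7 and Ndufv3 were above WT and below KO in CARM1i (adjusted p = 0.00939 and 0.0298). The calls of Atp5g1, Cox7b, Cox8a, Ndufa7 and Ndufb4 held in all 21 alternatives, and those of Cox5b, Ndufa11, Ndufb3 and Ndufv3 did not.

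The 5 members that fell in KO were also below WT in CARM1i, by log2 fold changes of -0.13 (Ndufb11), -0.11 (Uqcrfs1), -0.07 (Atp5a1), -0.07 (Ndufs1) and -0.07 (Ndufv1), and none passed (adjusted p = 0.0642, 0.0722, 0.112, 0.168 and 0.231). None of the 5 passed in CARM1i against KO. They were picked for their fall from the same WT libraries, so the shared direction is no independent result. The members together took 0.783 to 0.794% of the reads in CARM1i. The summed counts of complex V were 97.1% of WT and those of complex IV 102%.

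Other genes of the machinery were described from lists beside the members. Of 45 tested assembly factors, the proteins that build the complexes but do not stay in them, 10 rose and 1 fell in KO (24.4% called, below the 41.9% of all genes, median 0.05). The risers include Coa5 (log2 fold change 0.32, adjusted p = 5.39e-07) and Coa3 (0.27, 0.000155), both for complex IV, Uqcc1 for complex III (0.26, 0.000184) and Tmem126b for complex I (0.31, 0.000229). In CARM1i 4 rose (Coa3, Coa5, Coa7 and Sco2) and 2 fell (Sdhaf2 and Tmem70), 13.3% beside 19.1% of all genes. Sdhaf2, which inserts the flavin of complex II, rose in KO and fell in CARM1i (0.13 and -0.12, adjusted p = 0.0137 and 0.0446, and -0.25 between them, adjusted p = 0.000155). Of 5 subunits and carriers with other names, 1 rose in KO (20.0% called, below the 41.9% of all genes). It was the ATP synthase component Usmg5 (0.12, adjusted p = 0.0259). Cytochrome c (Cycs) and cytochrome c1 (Cyc1) did not pass, at -0.03 and 0.05.

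Of 19 regulators of mitochondrial gene expression, 5 rose and 6 fell in KO (57.9% called, beside 41.9% of all genes, median -0.10, range -0.67 to 1.00). Nrf1, the factor whose motif is shown above, fell from 1153, 1228 and 1159 in WT to 924, 922 and 979 in KO (log2 fold change -0.33 ± 0.05, adjusted p = 3.95e-05) and stood at 1026, 1009 and 1077 in CARM1i (-0.19 ± 0.05, adjusted p = 0.0137). Its 3 groups did not overlap. Tfam, which packages and transcribes mitochondrial DNA, fell from 2550, 2535 and 2422 to 1971, 2044 and 2072 (-0.30 ± 0.04, adjusted p = 1.01e-05), and in CARM1i it did not pass (-0.12, adjusted p = 0.0582). Polg, the mitochondrial DNA polymerase, fell in both (-0.25 and -0.15), and Gabpb2, a subunit of GABP, fell in KO (-0.30, adjusted p = 7.67e-05). Lrpprc, which stabilizes mitochondrial mRNAs, rose in both (0.21 and 0.11, adjusted p = 2.56e-05 and 0.0180). In CARM1i 1 regulator rose and 3 fell of 19 (21.1% called, beside 19.1% of all genes). The coactivators Ppargc1a and Ppargc1b were low, at 16.6 to 46.5 and 12.1 to 50.4 normalized counts in WT and KO, and both rose in KO (0.81 ± 0.30 and 1.00 ± 0.31, adjusted p = 0.0359 and 0.0145). The 13 subunits encoded in mitochondrial DNA are not analysed here.

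**Figure D5:**
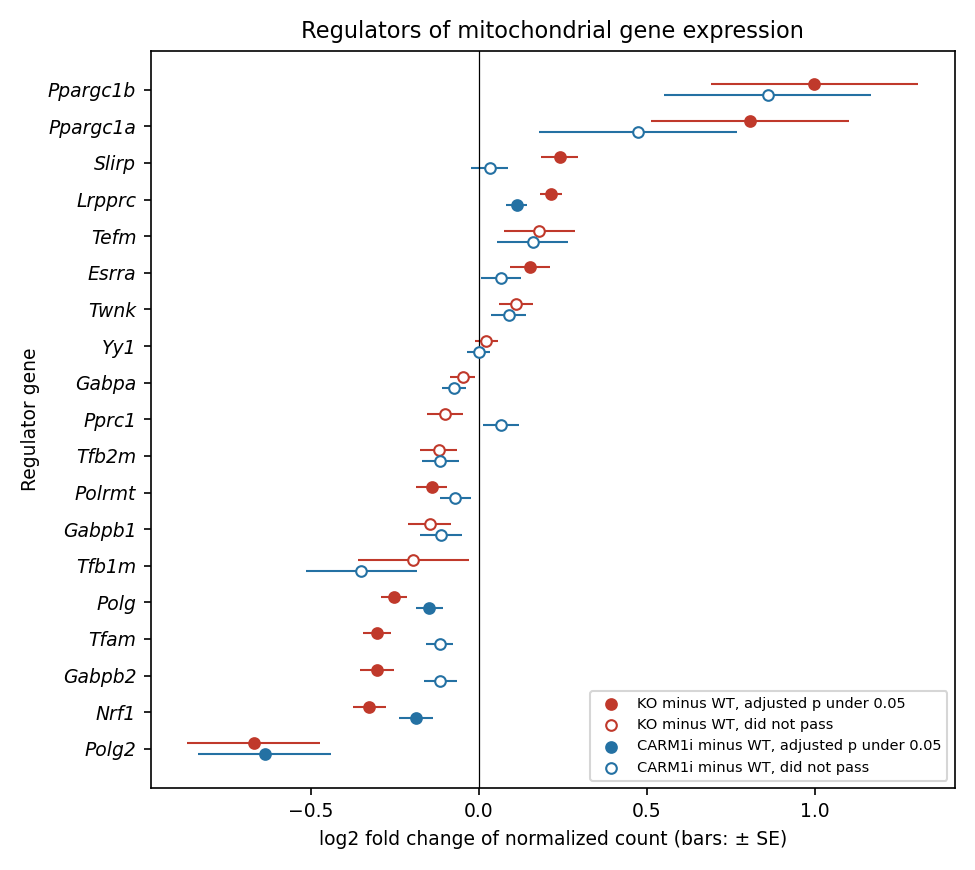
Log2 fold change ± SE against WT (x) of 19 regulators of mitochondrial gene expression (y), in KO (red) and CARM1i (blue); filled points passed an adjusted p of 0.05. Nrf1, Tfam, Gabpb2 and Polg lie to the left of 0, and Lrpprc and Slirp to the right, with the KO point farther from 0 than the CARM1i point for each of these 6. These 6 were picked by their values, and both changes use the same WT libraries, so this order is not a test. Over all 19 the changes ran from -0.67 to 1.00 in KO and from -0.64 to 0.86 in CARM1i.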

How the data were processed

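RNA of 9 libraries was sequenced from a stranded poly(A) mRNA kit, per the labels. Alignment, counting and scaling tools named in the submitters' processing notes are TopHat2 2.0.10, HTSeq 0.6.0 and DESeq 1.18.0, with the build mm10. For the strand setting, the sources used here give nothing. What the authors deposited are counts divided by a size factor per library, a normalized signal for 16428 genes; 100% of values were whole multiples of 1 read (tolerance 0.001 of a read), from which read totals of 28657018 to 35842771 were recovered. Gene IDs were matched to GENCODE M21 (16413 without version, 15 unmatched).

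The members and gene lists were chosen with earlier results of these data known. The main test was limma 3.58.1 (R 4.3.3) on log2(value + 1), moderated along a trend with abundance. The 1 added to each value understates the fold changes of low genes. It used all 9 libraries in 1 fit of 3 groups and genes with a mean of at least 10 (14560), with two-sided p-values adjusted by Benjamini-Hochberg over all of them and a threshold of 0.05. Means carry the SD of n = 3 libraries, and log2 fold changes the SE of the fit. Members named with library values are, per complex and comparison with WT, up to 4 by smallest adjusted p, the largest rise and fall, tissue isoforms and catalytic core genes; of other lists, up to 4 by smallest adjusted p. Other names were chosen after their values were seen. Values of some single genes that this rule names are not reported here. "Near-identical" means at least 95% identity over at least 50% of the principal transcript, which held for 11 members. Of the members called in KO, Atp5l, Ndufs3 and Ndufb11 have such copies. Exons of another gene overlap those of 25 members on the opposite strand, Atp5a1, Ndufs1, Ndufb11 and Ndufs3 included. On the same strand they overlap those of 5 members, Ndufb2 and Ndufb9 included.

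The 21 alternatives were pseudocounts of 0.5 and 10, a mean of at least 50, no filter at all, a common total, quantile normalization, no trend, only the 2 groups compared, the replicate number as a block, edgeR 4.0.16 and DESeq2 1.42.0 on recovered reads, each library left out, and an adjusted p under 0.01. The fit was tested on simulated counts. The background of genes with a mean of at least 500 was added after seeing the data. Replicates differed by a chi-square of 2.47 to 8.46 per gene, so none was a copy.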

Additional observations from a re-analysis of the deposited data

How the results depend on the processing

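No call of a member changed direction in any of the 21 alternatives. In KO against WT, 14 of 24 calls passed in every one, in CARM1i against WT 1 of 4, and in CARM1i against KO 5 of 9. Members that did not pass changed sign in at least 1 alternative for 10, 14 and 7 of the 40 named, respectively. Same-numbered replicates correlated by -0.087 to 0.027 after removing group means, so no shared effect of the replicate number was seen in expression. This cannot show whether libraries of the same number were prepared together. With the replicate block 19 members rose and 5 fell in KO, 3 rose and 0 fell in CARM1i, and 7 were lower in CARM1i than KO.

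The count of falls in KO was 3 without the intensity trend and 1 at an adjusted p under 0.01, and 1 to 5 with a library left out. The count of rises in CARM1i was 1 without the trend, 2 with only the 2 groups compared, 1 at an adjusted p under 0.01 and 1 to 6 with a library left out; falls were 3 with quantile normalization, 4 with a common total and 0 to 2 with a library left out (2 without WT replicate 3 or CARM1i replicate 3). Members lower in CARM1i than KO numbered 5 without the trend and 5 at an adjusted p under 0.01. After quantile normalization the median log2 fold change in KO was -0.017 for complex III, 0.031 for IV and -0.025 for V, and in CARM1i 0.003 for IV and -0.040 for V. With a common total it was 0.040 for complex I, -0.009 for III and -0.011 for V in KO, and -0.004 for I in CARM1i. With a library left out the KO medians were 0.041 to 0.061 for complex I, -0.015 to 0.018 for III, 0.046 to 0.119 for IV and -0.034 to 0.012 for V. The CARM1i medians were -0.003 to 0.034 for IV and -0.034 to -0.006 for V, and between CARM1i and KO they were -0.039 to -0.019 for I and -0.077 to -0.040 for IV. The causes were not tested.

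With 3 libraries a group, a member without a call may still have changed by as much as its confidence interval allows. Rescaling to a common total took the median of all genes to -0.021 in both comparisons with WT, from -0.004 in KO and -0.005 in CARM1i, and the share of higher calls in CARM1i from 55.1% to 47.1%.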

Other observations

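Genes of neighbouring mitochondrial pathways were described from lists beside the members, with the same fit (limma, adjusted over all genes tested). Of 16 tricarboxylic acid cycle enzymes and pyruvate dehydrogenase subunits, 5 rose and 1 fell in KO (37.5% called, beside 41.9% of all genes). Fumarate hydratase (Fh1) fell (log2 fold change -0.25, adjusted p = 0.000635), while Idh3b, a subunit of isocitrate dehydrogenase, rose from 3480, 3395 and 3469 normalized counts in WT to 3904, 3805 and 3765 in KO and 3833, 4013 and 3751 in CARM1i (0.15 and 0.16, adjusted p = 0.00195 and 0.00249). In CARM1i 2 rose, Idh3b among them, and Fh1 fell (-0.16, adjusted p = 0.0344), 18.8% beside 19.1% of all genes.

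Of 18 membrane and import genes, 4 rose and 5 fell in KO (9 called, beside 41.9% of all genes). The import receptor Tomm20 and the channel Vdac2 rose in KO (0.37 and 0.26, adjusted p = 3.21e-08 and 1.10e-05) and were the 2 that rose in CARM1i (0.28 and 0.16; 11.1% called, beside 19.1% of all genes), where none fell. The adenine nucleotide carrier Slc25a5 fell in KO (-0.17, adjusted p = 0.000121) and was higher in CARM1i than in KO (0.17, adjusted p = 0.000209). Of 11 genes of coenzyme Q synthesis, 1 rose and 2 fell in KO (27.3% called, beside 41.9% of all genes) and 0 passed in CARM1i (beside 19.1%), where 1 had an unadjusted p under 0.05. Pdss1, which makes the isoprenoid tail, fell from 385, 320 and 376 in WT to 228, 274 and 217 in KO (-0.59, adjusted p = 0.000302) and measured 289, 322 and 258 in CARM1i (-0.32, adjusted p = 0.0539).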
